A study of Mus musculus with 24 samples.

Results

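Potassium channel subunits were followed through the hippocampus of mice that lack the histone demethylase Kdm5c. The set held every protein-coding gene whose mouse symbol starts with Kcn followed by one of the letters a, b, c, d, f, g, h, j, k, m, n, q, s, t or v and further characters, without Kcnj13 and antisense entries, and came to 82 of the 47069 gene IDs counted. Members fell into 17 subfamilies by symbol and lay on 19 chromosomes, 1 of them on the X chromosome. The symbols chose the members by this rule, which was set with earlier results of these data known.

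Hippocampal RNA from males 2 to 4 months old was sequenced in 18 libraries, which form 6 groups of 3, and each library pooled 3 mice. The constitutive knockout (KO), Kdm5c -/y and labelled Kdm5c -/-, and its wild type were kept on a mixed C57/129 background and were sampled untreated or after 1 h of exploring an unfamiliar box with tubing and toys. The second line (ifKO), on a C57BL/6J background, carried a floxed Kdm5c and CaMKIIα-creERT2, a tamoxifen-dependent Cre driven in forebrain excitatory neurons, and was sampled untreated beside control mice whose Cre and tamoxifen status the sources used here do not give. This driver is known to spare glia and most inhibitory neurons. The KO and wild-type libraries were read as single reads of 50 nt and the other 6 as paired reads of 75 nt on another flowcell, so that line, strain, read type and flowcell cannot be told apart when levels of both lines are set side by side.

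Potassium channels let potassium leave the cell and so set its resting potential, end its action potentials and space its firing. Voltage-gated channels (Kcna to Kcnd, Kcnh, Kcnq) are built of 4 pore subunits, which beta subunits (Kcnab) and silent subunits (Kcnf, Kcng, Kcns, Kcnv) modify. Inward rectifiers (Kcnj) and leak channels (Kcnk) are open at rest, while the channels of Kcnma, Kcnn and Kcnt open with intracellular calcium or sodium. In the hippocampus they shape dendritic excitability and firing patterns, and in astrocytes they take up extracellular potassium.

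Kdm5c, a demethylase of lysine 4 of histone H3, was counted in every library. Its levels were 75.4, 74.2 and 76.4 CPM (counts per M counted, scaled by TMM, a trimmed mean of ratios between libraries) in untreated wild type and 75.8, 76.3 and 75.4 CPM in untreated KO. In ifKO it stood at 69.0, 63.6 and 65.3 CPM and in control at 62.1, 67.5 and 62.4 CPM. Both untreated comparisons overlapped. After novelty KO libraries held 78.5, 77.8 and 86.5 CPM and lay below the 100, 90.2 and 96.0 CPM of wild type, a difference of -0.24 ± 0.06 (log2 fold change ± SE) that did not pass the test in edgeR (adjusted p = 0.1075) but passed in DESeq2 (0.0392) and in edgeR corrected for GC content and length (0.0166) among 8 other settings. A count over the whole gene does not check the deletion of a part of it. A list of 8 germline genes, of which 8 were in the files, was chosen with earlier results of these data known. Its separation of the constitutive groups is therefore no independent check of genotype. The list includes Catsperz, a gene that overlaps Kcnk4. Summed levels were 9.66 to 11.3 CPM in untreated wild type and 32.1 to 36.9 CPM in untreated KO. In ifKO (9.09 to 11.5 CPM) and control (10.4 to 11.0 CPM) they overlapped.

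Depth ranged from 16.0 to 45.6 M counts in genes per library. Marker genes of the hippocampal fields (dentate gyrus and CA1 to CA3), of interneurons and of glia were counted throughout, and no listed marker was at 0 in all libraries. Wild type novelty 1 and KO novelty 2 stood apart: their root mean square deviation from the group mean over all genes was 0.27 and 0.28 on the log2 scale, against 0.12 to 0.22 in the other 16 libraries. Over the members it was 0.55 in KO novelty 2 and 0.13 to 0.31 in the other 11 constitutive libraries. Choroid plexus markers, 9 of 9 measured, summed to 637 CPM in KO untreated 2 and 408.5 CPM in control 1, against 40.0 to 86.4 CPM elsewhere. Nothing in the labels says which pools were independent beyond holding different mice, and p-values measure the spread between these pools.

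In untreated wild type 48 members reached 10 CPM, 19 lay from 1 to under 10 CPM, and 15 lay under 1 CPM. Per kilobase of merged exons, the scale on which genes are compared here, the 10 highest members held 54.6% of the summed level. Kcnab2, a cytosolic beta subunit of Kv1 channels, led with 129.6 CPM per kb (128.7 to 131.0 in 3 libraries). Kcnj10, the main inward rectifier of astrocytes, stood at 42.4 CPM per kb (41.5 to 43.0). The ranges of Kcnab2 and Kcnj10 did not overlap each other or that of Kcnj3. Kcnj3, Kcnk1, Kcnj4, Kcnj9 and Kcnd2 ran in this order from 34.2 down to 27.9 CPM per kb, and the range of each overlapped that of the next. Kcnj3 and Kcnj9 are subunits of G-protein-gated rectifiers. Kcnc1, also among the 10 highest, stood at 22.2 CPM per kb. With the longest transcript in place of merged exons as the length, 8 of the 10 highest members were shared.

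**Figure D1:**
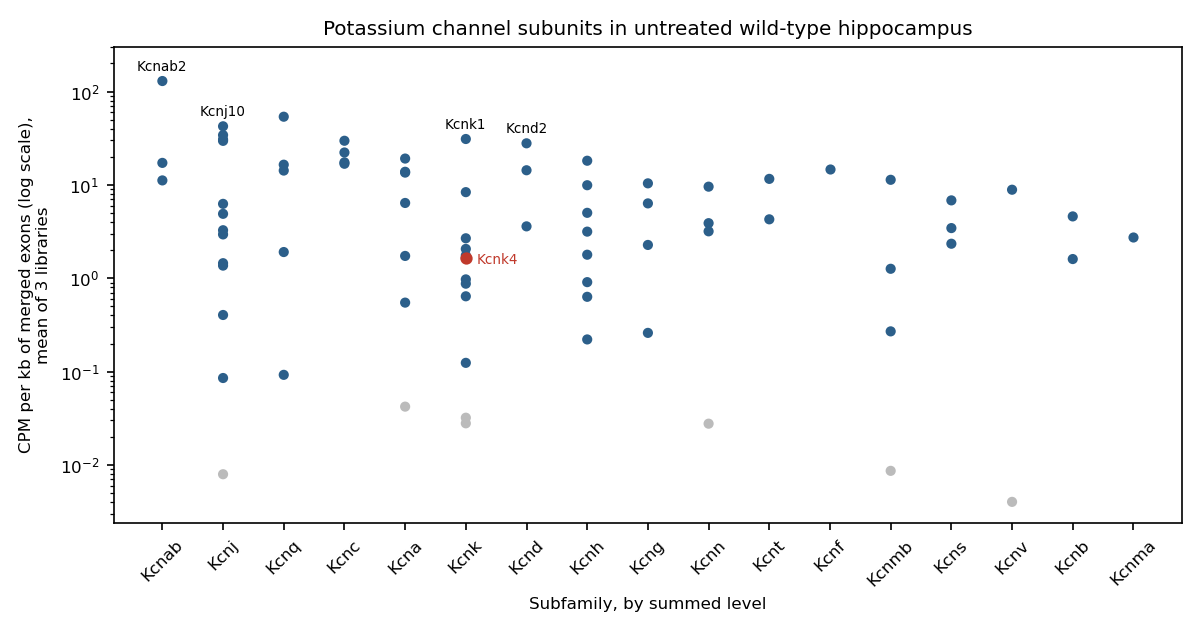
Each point is a member's mean level over the 3 untreated wild-type libraries, in CPM per kb of merged exons on a log axis, with subfamilies ordered by their summed level. Only the leading members of 4 subfamilies and Kcnk4 are named, members not tested are grey, members with no count in these libraries cannot be drawn, and Kcnk4 (red) lies at 1.66 CPM per kb, below Kcnk1 at 31.0.

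By subfamily, the Kv1 beta subunits (158 CPM per kb summed over 3 genes) and the inward rectifiers (157.5 over 14 genes) held the highest sums. Kv7 subunits of the Kcnq group summed to 86.5 and the fast-deactivating Kv3 subunits of the Kcnc group to 86.2 CPM per kb. Kv1 pores (55.2), leak channels (50.2), A-type Kv4 pores (45.8) and the ether-a-go-go group (39.8) came next. The calcium-activated BK pore gene Kcnma1 was low, at 2.77 CPM per kb, and its neuronal beta subunit Kcnmb4 stood at 11.3 CPM per kb. Silent subunits are split over the subfamilies Kcng (19.3 CPM per kb), Kcnf (14.7), Kcns (12.6) and Kcnv (8.88). They were led by Kcnf1 (14.7 CPM per kb), Kcng1, Kcnv1 (8.88) and Kcns2.

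The summed level of all members was 789 ± 14.7 CPM per kb (SD, n = 3) in untreated wild type, 812 ± 4.75 in untreated KO, 812 ± 12.7 in wild type after novelty and 816 ± 33.2 in KO after novelty. In the inducible line it was 767 ± 7.49 in control and 790 ± 13.5 in ifKO. Both untreated mutants lay above their controls without overlap, at 807 to 815 against 772 to 798 CPM per kb and at 781 to 805 against 762 to 775 CPM per kb. A permutation test of 3 libraries against 3 cannot go below 0.10, so no p is given. Markers of excitatory neurons, 6 of 6 measured, summed to 7242 to 7692 against 6800 to 6859 CPM in untreated KO and wild type and to 5724 to 5893 against 5215 to 5564 CPM in ifKO and control. Camk2a, a kinase of excitatory neurons, made up 74.4% and 72.2% of these sums in wild type and control. The other 5 markers together overlapped, at 1781 to 1872 against 1686 to 1798 CPM and at 1494 to 1582 against 1491 to 1555 CPM, and Camk2a and Spink8 were the 2 of 6 that were higher without overlap in each line. Their part in the summed channel level was not tested, and in bulk tissue fewer cells of a type and less RNA per cell cannot be told apart.

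Genes were tested where their counts allowed it, and 71 of the 82 members were tested in both lines. The 11 others (Kcna7, Kcna10, Kcnj1, Kcnj15, Kcnk7, Kcnk15, Kcnk16, Kcnk18, Kcnmb3, Kcnn4 and Kcnv2) held 0 to 80 counts over all 18 libraries. A change was called at an adjusted p under 0.05 from the quasi-likelihood test of edgeR, where the Benjamini-Hochberg adjustment ran over every gene tested. Differences are log2 fold changes ± SE, mutant minus control or novelty minus untreated.

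Kcnk4 was the 1 member called in untreated KO, and it was also the 1 member called in ifKO. It encodes TRAAK, a mechanosensitive leak channel with a pair of pore domains in each subunit that helps hold neurons at rest. The gene (ENSMUSG00000024957) lies on the minus strand of chromosome 19, at chr19:6923966-6934515 in build GRCm38. The untreated wild-type libraries held 7.40, 7.48 and 7.31 CPM, and the untreated KO libraries 11.4, 9.34 and 11.5 CPM. With novelty the wild-type libraries held 8.69, 8.14 and 7.73 CPM and the KO libraries 11.1, 10.2 and 10.2 CPM. Control libraries held 7.64, 7.16 and 7.22 CPM, and ifKO libraries 10.9, 9.81 and 11.25 CPM. Every mutant library therefore lay above every control library of either line, and the lowest KO library was the one with choroid plexus markers. Raw counts behind these levels were 120 to 522 per library.

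In untreated KO Kcnk4 rose by 0.55 ± 0.10 (95% interval 0.33 to 0.76, 1.46-fold, adjusted p = 0.0141 in edgeR). In ifKO it rose by 0.54 ± 0.08 (0.36 to 0.72, 1.45-fold, adjusted p = 0.0100 in edgeR). The difference between both effects was 0.02 ± 0.13 (-0.25 to 0.28, adjusted p = 1 in edgeR). After novelty KO libraries were higher without overlap, but the difference of 0.36 ± 0.10 did not pass the test (adjusted p = 0.136 in edgeR). The change of its novelty response between genotypes was -0.19 ± 0.14 and did not pass either. Over all genes tested in both lines, 1.60% of 16159 lay on the same side of their controls without overlap in all 3 genotype comparisons, 221 higher and 37 lower, and Kcnk4 was the 1 of 71 members to do so.

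Both calls could be lost by leaving out 1 library, although the difference stayed positive each time. In untreated KO the call was lost without wild type 1, 2 or 3 (adjusted p = 0.0599, 0.0673 and 0.0719 in edgeR) or without KO 1 or 3 (0.0982 and 0.0933), and kept without KO 2 (0.00591), while the difference stayed between 0.49 and 0.63. In ifKO it was lost without control 2 (0.0730) or control 3 (0.108), with differences from 0.50 to 0.59. It was kept without control 1, the other library with choroid plexus markers (0.0170), and without any 1 ifKO library (0.0121 to 0.0327).

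**Figure D2:**
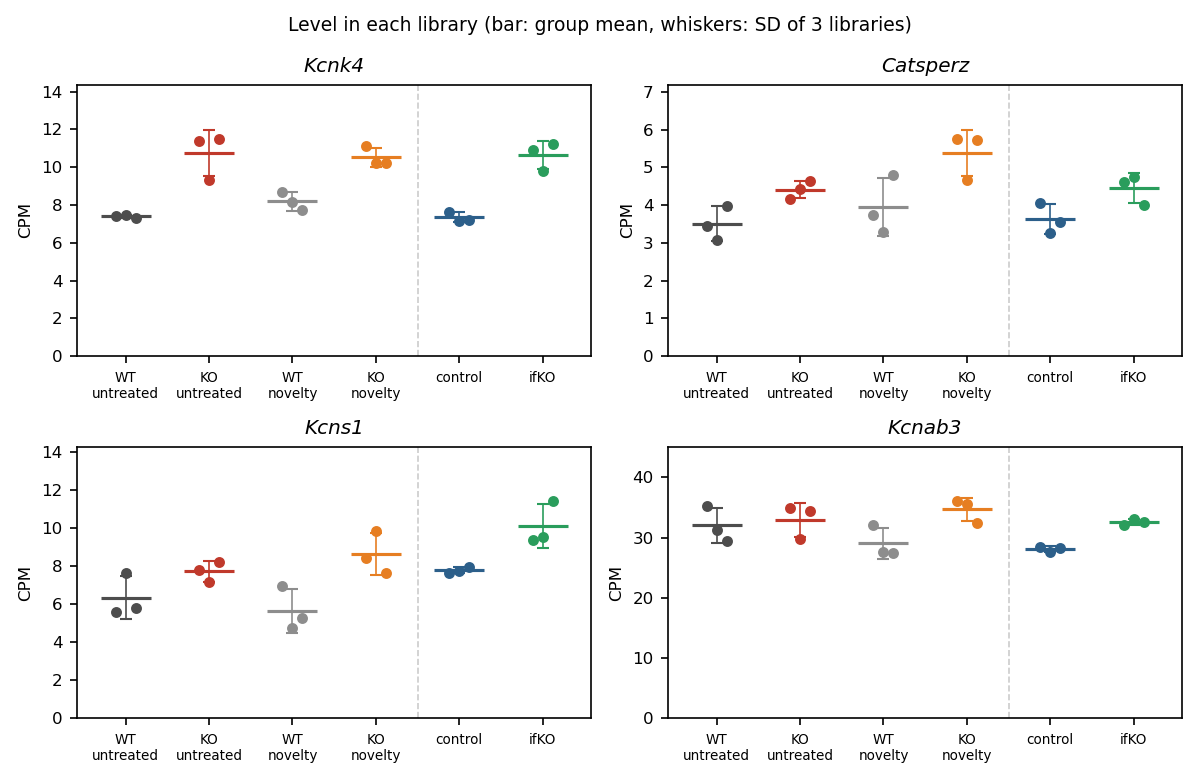
Levels in CPM (linear axes from 0) of Kcnk4, its neighbour Catsperz, and the subunits Kcns1 and Kcnab3 in the 18 libraries, with bars for group means, whiskers for the SD of 3 libraries, and a dashed line between the lines of mice. Kcnk4 lies at 9.34 CPM or more in all mutant libraries and at 8.69 CPM or less in all others.

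Because Kcnk4 was the called member, the 250 bases upstream of its start are shown beside those of Kcnk2 (TREK-1) and Kcnk10 (TREK-2), its closest relatives, as RefSeq places them in GRCm38.p6. All 3 genes lie on minus strands and are read 5′ to 3′. The windows are chr19:6934516-6934765, chr1:189402274-189402523 (1 of 4 starts) and chr12:98578214-98578463 (1 of 2 starts). The RefSeq start of Kcnk10 lies 97 bp from its GENCODE M21 start, so that 97 bases of its window are inside the gene as GENCODE M21 places it. Capitals mark a GC box, GGGCGG on either strand, which 32.7% of 32851 promoters of that length hold.
Kcnk4: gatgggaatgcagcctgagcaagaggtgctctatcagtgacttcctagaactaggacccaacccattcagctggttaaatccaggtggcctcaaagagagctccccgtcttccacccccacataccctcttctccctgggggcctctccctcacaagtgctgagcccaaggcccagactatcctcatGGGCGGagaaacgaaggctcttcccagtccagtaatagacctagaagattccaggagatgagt
Kcnk2: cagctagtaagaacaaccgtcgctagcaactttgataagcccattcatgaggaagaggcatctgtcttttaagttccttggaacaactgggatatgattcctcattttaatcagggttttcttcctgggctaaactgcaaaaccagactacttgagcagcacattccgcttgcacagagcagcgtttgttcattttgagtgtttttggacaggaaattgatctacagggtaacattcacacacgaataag
Kcnk10: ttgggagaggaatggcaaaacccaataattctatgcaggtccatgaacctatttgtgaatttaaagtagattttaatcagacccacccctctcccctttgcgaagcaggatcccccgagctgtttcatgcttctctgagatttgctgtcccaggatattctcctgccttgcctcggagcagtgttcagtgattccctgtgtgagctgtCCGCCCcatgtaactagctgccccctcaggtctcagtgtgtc
The Kcnk4 stretch held 3 CG dinucleotides, the Kcnk2 stretch 5 and the Kcnk10 stretch 4, against a median of 6 over all promoters. Other starts listed for the relatives hold up to 28 CG dinucleotides (Kcnk2) and 16 (Kcnk10), so the stretches shown do not stand for all promoters of these genes. CACGTG, the E-box found in 6.02% of promoters, and GCGGGAA, the E2F motif found in 3.82%, were searched on both strands, and these letters are in none of the 3 windows. The relatives' levels overlapped between genotypes in both untreated comparisons, at 39.1 to 45.2 CPM in KO and 40.6 to 42.1 CPM in wild type for Kcnk2. Kcnk2 differed by -0.04 ± 0.05 in ifKO, and Kcnk10 by -0.08 ± 0.14 in untreated KO and -0.05 ± 0.12 in ifKO. After novelty Kcnk10 was lower in KO without overlap, at 5.58, 5.29 and 5.37 against 7.06, 6.85 and 5.98 CPM, and did not pass the test.

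Catsperz, a sperm-specific gene by its known role, lies next to the 3′ end of Kcnk4 on the same strand (chr19:6922371-6925380), and both annotations share 587 exonic bases. Of the 7 annotated Kcnk4 transcripts, 1 noncoding one reaches Catsperz, while the protein-coding transcripts, 3 in number, end 282, 2919 and 3337 bp before it. Catsperz stood at 3.45, 3.07 and 3.99 CPM in untreated wild type and 4.17, 4.44 and 4.63 CPM in untreated KO, above wild type without overlap. Control libraries held 4.07, 3.27 and 3.55 CPM and ifKO libraries 4.62, 4.74 and 4.01 CPM, which overlap. It differed by 0.33 ± 0.16 between untreated genotypes, by 0.47 ± 0.16 between genotypes after novelty and by 0.30 ± 0.12 in the inducible line, and none passed (adjusted p = 0.608, 0.270 and 0.644 in edgeR). The counts do not show how reads in the shared bases were assigned or left out, and the part of Catsperz in the Kcnk4 result was not tested. The flanking genes outside the overlap were level, with Esrra at 0.07 ± 0.09 and Gpr137 at -0.03 ± 0.08 in untreated KO and 0.07 ± 0.07 and -0.02 ± 0.04 in ifKO.

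In untreated KO the other 70 tested members were not called. Called members were thus 1 of 71, beside 1.24% of all 16392 tested genes, and 5 of 71 passed an unadjusted p under 0.05, beside 8.66%. Libraries of both genotypes did not overlap for 23 of 71 members (15 higher and 8 lower in KO), beside 21% of all genes. The median difference over members was 0.05, beside 0.00 over all genes. Differences were positive for 46 of 71 members, or 64.8%, beside 50.5% of all genes. Within 1.2-fold lay 53 of 71 members, or 74.65%, beside 82.39% of all genes. Sums of markers of oligodendrocyte lineage (8 of 8 measured, 2971 to 3453 against 3832 to 4206 CPM), inhibitory neurons (8 of 8, 619 to 691 against 709 to 798 CPM) and astrocytes (6 of 6, 2404 to 2469 against 2185 to 2264 CPM) also separated untreated KO from wild type. Taken singly, 3 of 8 oligodendrocyte markers and 4 of 8 inhibitory markers were lower without overlap, and of the 6 astrocyte markers 4 were higher and 1 was lower. Without Gad1, the most abundant, the inhibitory sum overlapped. Sums of microglia markers (271.4 to 292 against 259.6 to 270.9 CPM) and choroid plexus markers (64.9 to 637 against 42.6 to 49.4 CPM) were higher in KO without overlap. The sum of meninges markers was lower (79.9 to 88.0 against 89.5 to 111.5 CPM). Single microglia markers went both ways, with P2ry12 and Csf1r higher and Cx3cr1 lower without overlap. The part of all these markers in the members' values was not tested.

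Among pore subunits of voltage-gated channels, the 5 Kcnq genes each had a positive difference in untreated KO, with a median of 0.17, and none passed. Kcnq3, a pore subunit of the M channel that brakes repetitive firing, overlapped between genotypes, at 276, 283 and 256 CPM in KO against 265, 205 and 256 CPM in wild type. In ifKO 2 of the 5 Kcnq differences were positive. Kv1 to Kv4 pores differed little, with 10 of 15 tested members positive and extremes of 0.27 ± 0.27 (Kcna3, a Kv1 pore) and -0.20 ± 0.10 (Kcnc4, a Kv3 pore).

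Of the ether-a-go-go group, Kcnh8 (-0.64 ± 0.41) and Kcnh4 (-0.31 ± 0.16) were among the 3 lowest of the members at 1 CPM or more in untreated KO, both with overlapping libraries and adjusted p = 0.746 and 0.648 in edgeR. Kcnh8 lay at 0.42 to 0.85 CPM in KO and 0.76 to 1.16 CPM in wild type. The third was Kcnk13, a leak channel gene enriched in microglia, at 4.85, 4.02 and 4.57 CPM against 4.56, 6.59 and 5.25 CPM (-0.29 ± 0.14, adjusted p = 0.621).

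Kcnma1, the pore of the calcium-activated BK channel, had a difference as large as that of Kcnk4 in untreated KO but a wide error (0.55 ± 0.41, adjusted p = 0.803 in edgeR), with libraries that did not overlap. Kcnv1, a silent partner of Kv2 channels, stood at 48.5, 63.2 and 48.5 CPM in untreated KO and at 40.1, 38.5 and 43.6 CPM in wild type, without overlap, and did not pass (0.39 ± 0.15, adjusted p = 0.409 in edgeR). Kcns3, a silent subunit, was lower without overlap at 9.57, 9.48 and 8.15 CPM against 12.02, 10.9 and 9.79 CPM (-0.26 ± 0.10, adjusted p = 0.442 in edgeR). Among inward rectifiers Kcnj9, a G-protein-gated subunit, was lower at 112, 103 and 111 CPM against 133, 124.5 and 123.5 CPM (-0.22 ± 0.08, adjusted p = 0.354 in edgeR). In the inducible line Kcnv1, Kcns3 and Kcnj9 differed by 0.03 ± 0.05, 0.00 ± 0.07 and -0.01 ± 0.04. Astrocytic Kcnj10 (-0.04 ± 0.08) and Kcnj16 (0.08 ± 0.11), and Kcnj8 of mural cells (0.01 ± 0.16), stayed near 0 in untreated KO.

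After novelty no member was called between KO and wild type in edgeR, beside 1.34% of all genes, and DESeq2 called 1 (Kcns1). An unadjusted p under 0.05 was reached by 11 of 71 members (8 higher, 3 lower), beside 8.73%, and libraries did not overlap for 12 (6 higher, 6 lower), beside 11.2%. Kcns1, a silent modifier of Kv2 channels, stood at 8.42, 9.84 and 7.68 CPM in KO and 6.95, 4.75 and 5.26 CPM in wild type. All 3 KO libraries were above all wild-type ones, by 0.61 ± 0.16 (adjusted p = 0.110 in edgeR, 0.0405 in DESeq2). Its call also appeared without wild type novelty 1 (0.0252). In untreated KO its levels of 7.80, 7.17 and 8.25 CPM overlapped the 5.61, 7.65 and 5.80 CPM of wild type.

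Kcnab3, a Kv1 beta subunit, was higher after novelty in KO at 36.1, 35.5 and 32.5 CPM against 32.0, 27.5 and 27.5 CPM (0.26 ± 0.09, adjusted p = 0.339 in edgeR). Kcnj14, an inward rectifier near the lower limit of the test, lay above wild type without overlap at 1.53, 2.03 and 2.06 against 1.13, 1.10 and 1.33 CPM (0.66 ± 0.26, adjusted p = 0.399 in edgeR). Kcnh6 of the ether-a-go-go group was higher by 0.43 ± 0.18. The lowest values at 1 CPM or more were those of the leak channels Kcnk13 (-0.43 ± 0.14), Kcnk9 (-0.36 ± 0.25) and Kcnk10 (-0.29 ± 0.14), with adjusted p of 0.282, 0.823 and 0.616 in edgeR. Kcnk13 stood at 4.91, 4.00 and 4.21 CPM in KO, below the 5.67, 5.98 and 6.07 CPM of wild type. Kcnk10 was also lower without overlap, and Kcnk9 overlapped. Under 1 CPM, Kcnj5, an inward rectifier, was lower without overlap (-1.01 ± 0.53, adjusted p = 0.678 in edgeR), and Kcnh8 differed by -0.39 ± 0.47. Dentate gyrus markers summed lower in KO after novelty than in wild type (314 to 351 against 354.5 to 467.5 CPM). Astrocyte markers summed higher (2263 to 2532 against 2220 to 2242 CPM). Apart from the germline list, the other marker sums overlapped. The part of these markers in the members' values was not tested.

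In ifKO called members were 1 of 71, beside 0.645% of 17367 genes, and the 12 members under an unadjusted p of 0.05 (beside 6.64%) were all higher. Libraries did not overlap for 12 of 71 (11 higher, 1 lower), beside 12%. Differences were positive for 51 members, or 71.8%, beside 50.6% of all genes, with a median of 0.04. Within 1.2-fold lay 64 of 71 members, or 90.1%, beside 88.9% of all genes. Without 1 library at a time the number of positive members ran from 42 to 55. Camk2a and Spink8 were higher in ifKO, as given above. Inhibitory neuron markers summed to 758 to 775 against 794 to 808 CPM, with Gad1 and Gad2 lower without overlap and the other 6 overlapping. The part of these genes in the members' values was not tested.

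After Kcnk4, the smallest adjusted p in ifKO was that of Kcnab3 (0.21 ± 0.04, adjusted p = 0.0571 in edgeR), at 32.1, 33.0 and 32.6 CPM against 28.5, 27.6 and 28.2 CPM. An antisense gene shares 147 exonic bases with it, and the sources used here do not say whether counting used strand. Kcns1 followed at 9.37, 9.53 and 11.4 CPM against 7.64, 7.77 and 7.97 CPM, above control without overlap (0.37 ± 0.09, adjusted p = 0.162 in edgeR). Kcnk12, a silent leak channel, overlapped at 3.39, 2.26 and 5.39 against 2.31, 2.92 and 2.45 CPM (0.52 ± 0.25, adjusted p = 0.775 in edgeR). That difference was 0.15 without ifKO 3, 0.77 without ifKO 2 and 0.14 when corrected for GC content and length. It passed without the filter on low counts (adjusted p = 0.0177 in edgeR). Kcnj14 did not overlap (0.41 ± 0.17). The lowest at 1 CPM or more were Kcnj2, Kcnmb1 and Kcnab1, at -0.08 ± 0.09, -0.07 ± 0.21 and -0.07 ± 0.03. Under 1 CPM, Kcnq1 differed by -0.43 ± 0.48, and Kcnh8, at -0.34 ± 0.24, was the 1 member lower without overlap. Kcnab3 and Kcns1 also lay above wild type without overlap in KO after novelty, though not in untreated KO, where they differed by 0.05 ± 0.09 and 0.28 ± 0.16.

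**Figure D3:**
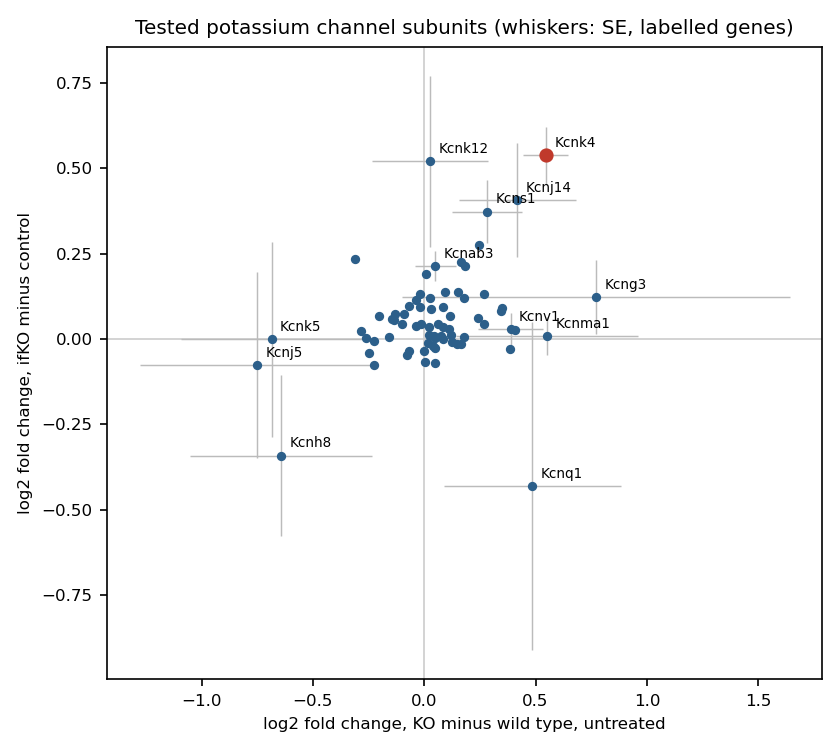
Each point is 1 of 71 tested members, with its log2 fold change in untreated KO against wild type on the horizontal axis and in ifKO against control on the vertical axis, and whiskers of 1 SE on named genes. Kcnk4 (red) lies at 0.55 and 0.54 with short whiskers, while Kcng3 and Kcnma1 have wide horizontal ones.

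The untreated KO and ifKO comparisons share no library. Of 71 members, 35 were positive in both, 9 negative in both and 27 opposite, so that 62.0% had the same sign, beside 56.9% of 16159 genes. In the test of the difference between both effects no member was called in edgeR or DESeq2, beside 0.114% of genes, and 3 members passed an unadjusted p under 0.05 (beside 4.0%): Kcnh4 (-0.54 ± 0.22), Kcnj9 (-0.21 ± 0.10) and Kcns3 (-0.26 ± 0.12), each lower in KO. The intervals were wide where constitutive libraries spread, as for Kcng3 (0.65 ± 0.89), Kcnma1 (0.55 ± 0.49) and Kcnt2 (0.42 ± 0.23).

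Novelty for 1 h called no member in edgeR or DESeq2 in wild type (beside 0.384% of genes), in KO (beside 0.11%) or on the mean of both genotypes (beside 1.35%). An unadjusted p under 0.05 was reached by 5 members in wild type (3 higher, 2 lower, beside 11.0%), by 4 in KO (all higher, beside 6.71%) and by 6 on the mean (5 higher, 1 lower, beside 13.5%). Kcnf1, a silent subunit, stood at 75.3, 83.4 and 85.5 CPM in KO after novelty and 66.6, 62.4 and 61.6 CPM in untreated KO, without overlap. In wild type its 86.9, 63.5 and 78.1 CPM after novelty enclosed the 69.4 to 71.5 CPM of the untreated libraries. The difference was 0.36 ± 0.10 in KO (adjusted p = 0.330 in edgeR) and 0.23 ± 0.07 on the mean (adjusted p = 0.121 in edgeR).

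Kcnh1, an ether-a-go-go pore subunit, stood at 90.4, 80.8 and 84.1 CPM after novelty and 67.9, 73.5 and 76.9 CPM untreated in wild type, without overlap. Its difference was 0.23 ± 0.07 there (adjusted p = 0.213 in edgeR) and 0.17 ± 0.05 on the mean (adjusted p = 0.122 in edgeR). Kcng1, a silent subunit, was higher in KO after novelty without overlap (48.6 to 61.0 against 42.4 to 45.8 CPM) and by 0.22 ± 0.08 on the mean. Kcna4, a Kv1 pore with fast inactivation, had the lower level, at 23.6 to 29.6 against 30.0 to 32.0 CPM in wild type and -0.19 ± 0.07 on the mean (adjusted p = 0.240 in edgeR). For the 4 Kcnc genes, all differences were positive in wild type, and 3 of 4 were in KO, with medians of 0.07 and 0.04. Wild-type sums of excitatory markers rose after novelty (7238 to 7861 against 6800 to 6859 CPM). CA2 and CA3 sums did too (1433 to 1556 against 1270 to 1415 CPM). Oligodendrocyte (3255 to 3726 against 3832 to 4206 CPM) and endothelial and mural sums (316 to 339 against 367 to 431 CPM) were lower. In KO, dentate gyrus (314 to 351 against 354 to 403 CPM) and choroid plexus sums (40.0 to 63.8 against 64.9 to 637 CPM) were lower. Other sums overlapped, and the markers' part was not tested.

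**Figure D4:**
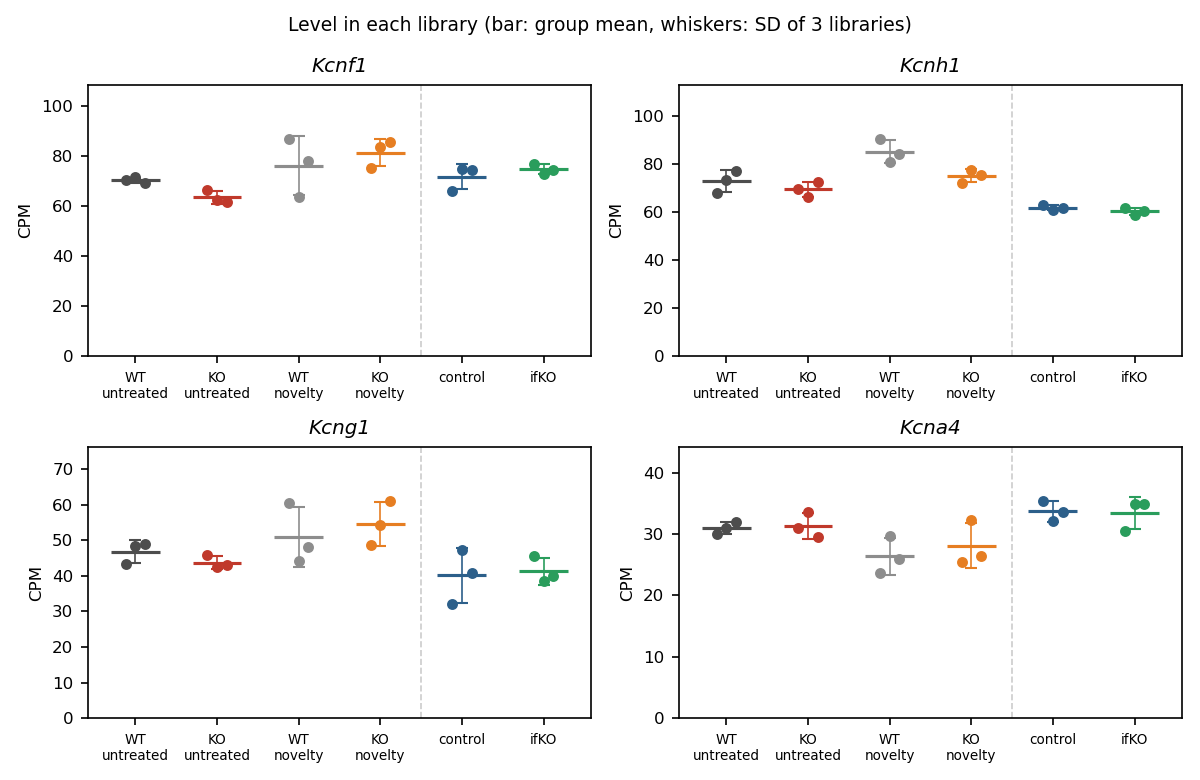
Levels in CPM (linear axes from 0) of Kcnf1, Kcnh1, Kcng1 and Kcna4 in the 18 libraries, with bars for group means and whiskers for the SD of 3 libraries. Novelty libraries of Kcnf1 in KO (75.3 to 85.5 CPM) lie above untreated ones (61.6 to 66.6 CPM), and none of the 4 genes passed the test.

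Among members at 1 CPM or more, the largest fitted novelty differences in wild type were those of Kcng3 (1.22 ± 0.85), Kcnma1 (0.65 ± 0.41) and Kcnj6 (0.44 ± 0.22) upward and of Kcnh8 (-0.56 ± 0.42), Kcna5 (-0.28 ± 0.22) and Kcnt1 (-0.27 ± 0.12) downward. In KO they included Kcnj14 (0.38 ± 0.24), Kcng3 (0.36 ± 0.79) and Kcnf1 (0.36 ± 0.10) upward and Kcnk9 (-0.27 ± 0.25) and Kcnt2 (-0.23 ± 0.20) downward. Under 1 CPM, Kcnk5, a leak channel, had the largest difference in KO, at 0.675, 0.676 and 0.351 CPM after novelty against 0.306, 0.231 and 0.237 CPM, without overlap (1.07 ± 0.39, adjusted p = 0.579 in edgeR). The novelty response differed between genotypes for 0 of 71 members in edgeR and DESeq2, beside 0.0% of genes, and 0 of 71 reached an unadjusted p under 0.05, beside 3.43%. Its extremes at 1 CPM or more were Kcng3 (-0.86 ± 1.16), Kcnk9 (-0.60 ± 0.35) and Kcnma1 (-0.57 ± 0.58) on one side and Kcna5 (0.42 ± 0.31), Kcns1 (0.33 ± 0.23) and Kcnh4 (0.31 ± 0.23) on the other.

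Spread between libraries varied among members. Of 67 members at 1 CPM or more in untreated wild type, 12 had a highest library more than 2 times the lowest over the 12 constitutive libraries, and 1 over the 6 of the inducible line. The median ratio of highest to lowest was 1.5 and 1.17. In 9 of those 12 members the highest library was KO novelty 2, and in 3 the lowest was wild type untreated 2. Kcnma1, the BK pore, stood at 43.0, 143 and 33.4 CPM in KO after novelty, 70.8, 91.7 and 58.9 CPM in wild type after novelty, 61.1, 74.8 and 71.1 CPM in untreated KO and 49.4, 32.8 and 58.9 CPM in untreated wild type. The inducible line stayed within 117.7 and 137.9 CPM, above all constitutive libraries but KO novelty 2.

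Kcng3, a silent subunit, varied the most, from 0.27 CPM in wild type untreated 2 to 5.29 CPM in KO novelty 2, and lay at 4.99 to 6.55 CPM in the inducible line. Kcnh7 and Kcnh5 of the ether-a-go-go group stood at 92.4 and 10.7 CPM in KO novelty 2 and at 31.5 to 71.8 and 2.43 to 6.11 CPM in the other 11. Inhibitory neuron markers, 8 of 8 measured, summed to 850 CPM in KO novelty 2 and to 619 to 798 CPM in the other 11, and their part in this spread was not tested. Without wild type novelty 1 and KO novelty 2, 5 members passed the test between KO and wild type after novelty (Kcna2, Kcnma1, Kcnq3, Kcns1 and Kcnt1), beside 4.26% of 16556 genes (705), and the group then held 2 libraries on either side. The control group of the inducible line exceeded untreated wild type by 6.41 times for Kcng3 and 2.71 times for Kcnma1.

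**Figure D5:**
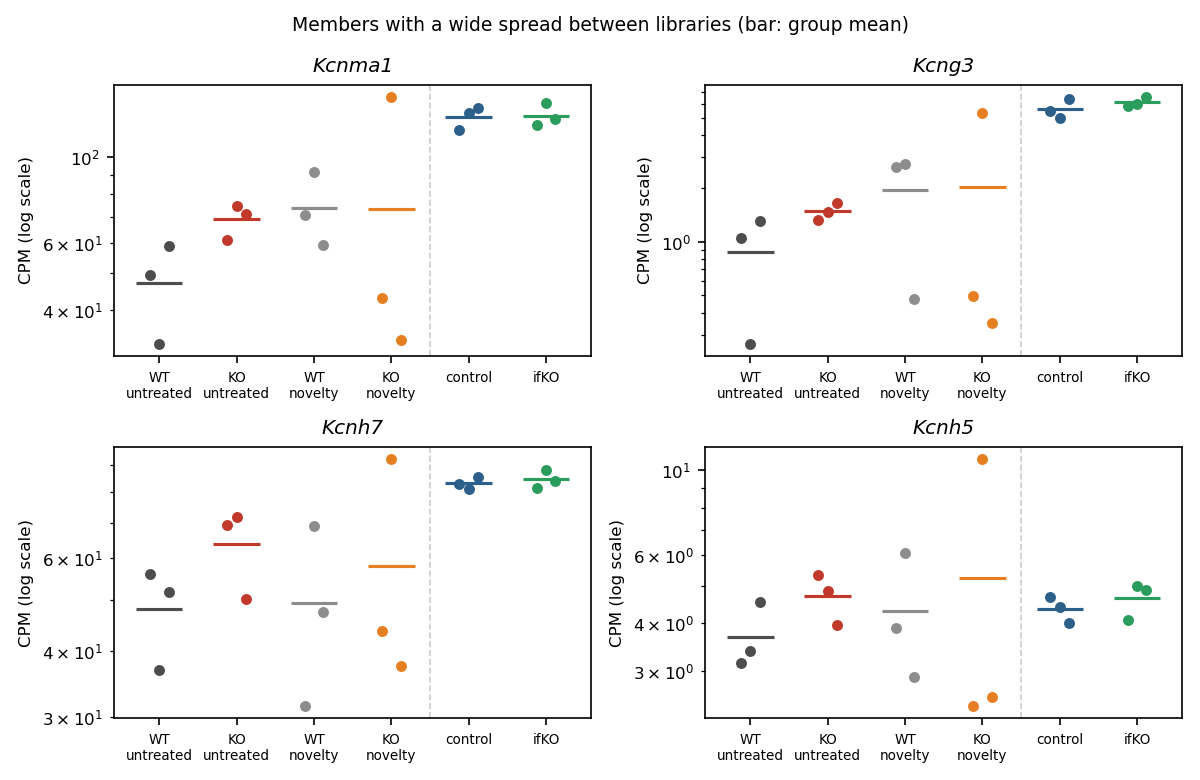
Levels in CPM on log axes of Kcnma1, Kcng3, Kcnh7 and Kcnh5 in the 18 libraries, with bars for group means. The point of KO novelty 2 lies far above its group in each panel (143 against 33.4 and 43.0 CPM for Kcnma1).

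Of 24 listed symbols of partners that assemble with these channels, such as Kcne and Kcnip subunits, 23 matched a gene in the files. The symbol without a match was Kcne5. Of the matched genes, 18 were tested in the constitutive line. In KO after novelty 1 of 18 was called, and none was called in the other constitutive comparisons or among 20 tested in ifKO, where 0 passed an unadjusted p under 0.05. In the constitutive line 0 to 5 of 18 did, with 5 for novelty in wild type. The shares over all genes given above for KO after novelty (1.34% called) and for novelty in wild type (11.0% at an unadjusted p under 0.05) stand beside these counts. DESeq2 called 2 in KO after novelty (Abcc8 besides) and 0 elsewhere. The gene called in edgeR was Kcne1l, a single-pass auxiliary subunit of the Kcne family on the X chromosome, which rose with the KO after novelty, at 3.78, 3.51 and 3.66 CPM against 2.18, 2.23 and 1.80 CPM in wild type (0.81 ± 0.14, adjusted p = 0.00974 in edgeR). Its call was lost without KO novelty 1 (0.0538) and when only the groups compared were fitted (0.0890). Untreated KO also lay above wild type without overlap, at 3.43, 3.84 and 4.03 against 2.78, 2.89 and 2.39 CPM (0.48 ± 0.14, adjusted p = 0.171 in edgeR), while ifKO overlapped control (0.14 ± 0.15). None of 23 other cation channels, from Hcn and sodium to calcium channels and Piezo, was called in any comparison in edgeR or DESeq2, with 0 to 2 of 23 at an unadjusted p under 0.05.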

How the data were processed

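Raw counts for each Ensembl gene were deposited by the authors, in 1 file for each of 18 libraries (24 sample records, since paired reads have a record each). The tools named, per the submitters' processing notes, were HTSeq 0.6.1, DESeq2, SAMtools 1.3 and STAR 2.5.0c, with build GRCm38. The sources used here do not give the annotation release or the strand setting. Symbols, positions and lengths came from GENCODE M21, which matched 46574 of 47069 IDs and left 495 without a name. Lines that name no gene were left out (no feature 14.7 to 17.2% and ambiguous 0.765 to 1.06% of reads).

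Counts were tested in R 4.3.3 with edgeR 4.0.16 (TMM, filterByExpr with a minimum count of 10 and a minimum total of 15, quasi-likelihood, Benjamini-Hochberg, threshold 0.05). The 12 constitutive libraries, the 6 of the inducible line and, for the difference between mutants, all 18 were fitted separately. An SE is the difference divided by the root of the F statistic. CPM use the TMM factors of each line. Alternatives were DESeq2 1.42.0, RLE factors, no filter, 1 CPM in 3 libraries, only the groups compared, a replicate block, and each library left out. Leaving out both deviating novelty libraries, and offsets for GC content and length, were chosen after seeing the data. Scripts were tested on simulated data.

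The members and lists were chosen with earlier results of these data known. Members named are those called, the 3 highest and 3 lowest of each comparison among those at 1 CPM or more, the highest of each subfamily, and a set of examples, except some that are not reported here; Kcnab3, Kcns1, Kcns3, Kcnj9, Kcnc4, Kcna3, Kcng1, Kcnk5, Kcnj5 and Kcnq1, and Kcnh8 where it lies under 1 CPM, were also named after their values were seen. Replicate numbers are not known to pair the libraries. Deviations from the group mean correlated over 0.1 in 2 of 18 same-numbered pairs of the constitutive line and 0 of 3 of the inducible line. Among differently numbered pairs 11 of 36 and 0 of 6 did. Deviations from a mean of 3 libraries cannot exclude a pairing.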

Additional observations from a re-analysis of the deposited data

How the results depend on the processing

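Kcnk4 kept its call and direction in untreated KO and in ifKO under every setting that kept all libraries of the groups compared, with differences of 0.54 to 0.56 and 0.51 to 0.54. Leaving out 1 library at a time, the number of members called ran from 0 to 1 in untreated KO, in KO after novelty, for the mean novelty response (1 without wild type novelty 2) and in ifKO. In untreated KO the count of 1 became 2 without the filter and with GC and length offsets (Kcnk4, Kcnv1), 2 with only the groups compared (Kcnk4, Kcnj6) and 3 without both deviating novelty libraries (Kcnj9, Kcnk4, Kcnv1). In KO after novelty the count of 0 became 1 with DESeq2 and without the filter (Kcns1) and 5 without both novelty libraries. Leaving these out also gave 1 for novelty in wild type (Kcnt1) and 4 for the difference in novelty response (Kcnj6, Kcnma1, Kcnq3, Kcnt2). Of 16556 genes, 2.51% were then called in untreated KO and 4.26% in KO after novelty. For novelty in wild type the share was 2.72%, and for the difference in novelty response 2.00%. For the other settings only the range of all genes called is given, below. The mean novelty response gave 1 without the filter and 1 with offsets (Kcnf1). In ifKO the count of 1 became 5 without the filter and 2 with the stricter filter (Kcnab3, Kcnk4). The cause of these shifts was not tested.

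With the replicate block, Kcnk4 kept its call (adjusted p = 0.0265 in untreated KO and 0.0223 in ifKO in edgeR), and the number of members called was 1 in both and 0 in each other comparison. The numbers are not known to pair libraries, and the block took the count of all genes called for novelty from 63 to 33 in wild type and from 18 to 6 in KO.

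Differences that changed sign had not passed the test. Kdm5c in untreated KO was -0.004 with offsets and -0.0106 to 0.0242 leaving out 1 library. Without both novelty libraries Kcng3 was -1.78 for novelty in KO and -0.40 on the mean, and Kcnma1 -0.078 on the mean. Leaving out 1 library gave -1.78 to 0.87, -0.28 to 1.04 and -0.10 to 0.53 for these 3, and in ifKO -0.157 to 0.0264 for Kcnj2 and -0.191 to 0.0801 for Kcnmb1.

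Counts of all genes called moved by over 1.5 times from 204 to 121 at the lowest and 415 at the highest in untreated KO, from 219 to 104 and 705 in KO after novelty, from 63 to 4 and 451 for novelty in wild type, from 18 to 1 and 101 for novelty in KO, from 222 to 91 and 712 on the mean, from 0 to 331 for the difference in novelty response, from 112 to 56 and 398 in ifKO, and from 20 to 83 for the difference between mutants. Members under 1 CPM had too few counts to show a moderate difference at this depth.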
